A study of Mus musculus with 6 samples.

Results

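The enzymes that write and erase DNA methylation, with the methylation reader Uhrf1 and its paralogue, were examined for E2F1 binding in NIH/3T3 cells, an established mouse embryonic fibroblast line. The group was chosen by gene function and holds 8 genes, Dnmt1, Uhrf1, Uhrf2, Dnmt3a, Dnmt3b, Tet1, Tet2 and Tet3, of 21900 protein-coding genes with a position in RefSeq. A peak was assigned to a gene when any base of it lay inside the gene's span or within 1000 bp of it. Chromatin immunoprecipitation followed by sequencing (ChIP-seq) had been done on cells with a stably integrated, doxycycline-inducible E2F1 construct (E2F1, 2 libraries) and on cells with an inducible empty vector (EV, 2 libraries). Every library came from cells starved of serum for 48 hours and then given doxycycline for 12 hours, so starvation and drug are shared by all groups. Whether the lines are clones or pools, and whether replicates are separate cultures, is not given in the sources used here. The labels also name 2 EV input samples, which were not analysed here. The lists hold binding sites only, so neither the level of the induced E2F1 nor expression of fibroblast markers could be checked in them.

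DNA methylation in mammals is copied after replication by Dnmt1, which Uhrf1 brings to hemimethylated CpG sites on newly made DNA. Dnmt3a and Dnmt3b place methyl groups on DNA that carried none, and the TET enzymes Tet1, Tet2 and Tet3 oxidise methylcytosine as a step toward its removal. E2F1 is a transcription factor that acts on genes needed for DNA synthesis as cells leave the resting state, and copying of methylation belongs to that phase.

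The E2F1 lists held 7836 peaks in replicate 1 and 8027 in replicate 2, and the EV lists 70 and 358. Sequencing depth was not measured. As an indirect guide to it, the lowest background that could be recovered from each list was 1.85 and 1.86 reads in E2F1 replicates 1 and 2. It was 2.20 and 1.18 reads in EV replicates 1 and 2. Every list ends at a −log10 p of just above 10, so a gene without a listed peak may still carry weaker signal.

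Promoter sequences are shown first because at each of the 8 genes a peak of at least 1 E2F1 library overlapped a promoter window, although the stronger of the Tet3 sites overlapped none. They are the RefSeq windows of GRCm38.p6, from 250 bases before to 50 bases from a listed start, written 5′ to 3′ on the gene's strand. Capitals mark the E2F words that were searched on both strands: TTTCCCGC, TTTGGCGC, TTTGCCGC and TTTCGCGC, and the same words without their first T. The table listed 13 windows for the 8 genes. The following windows are those of the maintenance pair that held the replicate 2 summits (the replicate 1 summits lay outside them, within the same peaks), of Uhrf2, and of the de novo enzymes, with the upstream Dnmt1 window that carried no peak for contrast.
Dnmt1 downstream start, chr9:20952574-20952873, minus strand: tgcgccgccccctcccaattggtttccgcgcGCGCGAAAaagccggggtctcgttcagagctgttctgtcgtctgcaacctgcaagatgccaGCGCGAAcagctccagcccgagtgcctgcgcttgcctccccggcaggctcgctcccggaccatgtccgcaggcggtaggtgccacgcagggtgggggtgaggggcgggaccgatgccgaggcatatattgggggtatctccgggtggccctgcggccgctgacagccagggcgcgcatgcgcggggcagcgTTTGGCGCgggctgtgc
Uhrf1 downstream start, chr17:56304063-56304362, plus strand: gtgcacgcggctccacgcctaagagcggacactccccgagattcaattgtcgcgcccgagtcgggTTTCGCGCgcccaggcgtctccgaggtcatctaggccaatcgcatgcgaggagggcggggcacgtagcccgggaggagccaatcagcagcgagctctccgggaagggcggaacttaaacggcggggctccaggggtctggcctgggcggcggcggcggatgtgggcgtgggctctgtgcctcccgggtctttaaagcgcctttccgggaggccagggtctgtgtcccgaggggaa
Uhrf2, chr19:30030263-30030562, plus strand: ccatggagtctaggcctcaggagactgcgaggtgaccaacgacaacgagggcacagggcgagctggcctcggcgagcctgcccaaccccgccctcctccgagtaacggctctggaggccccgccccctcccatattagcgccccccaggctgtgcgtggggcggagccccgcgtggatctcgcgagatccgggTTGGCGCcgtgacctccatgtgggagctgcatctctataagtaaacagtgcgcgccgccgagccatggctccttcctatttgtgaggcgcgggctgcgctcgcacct
Dnmt3a, chr12:3806910-3807209, plus strand: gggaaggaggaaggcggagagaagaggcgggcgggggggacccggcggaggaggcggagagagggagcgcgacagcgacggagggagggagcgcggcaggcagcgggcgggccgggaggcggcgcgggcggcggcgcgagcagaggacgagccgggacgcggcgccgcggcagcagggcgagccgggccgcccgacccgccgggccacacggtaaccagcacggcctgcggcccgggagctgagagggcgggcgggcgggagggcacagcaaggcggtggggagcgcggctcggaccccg
Dnmt3b, chr2:153649199-153649498, plus strand: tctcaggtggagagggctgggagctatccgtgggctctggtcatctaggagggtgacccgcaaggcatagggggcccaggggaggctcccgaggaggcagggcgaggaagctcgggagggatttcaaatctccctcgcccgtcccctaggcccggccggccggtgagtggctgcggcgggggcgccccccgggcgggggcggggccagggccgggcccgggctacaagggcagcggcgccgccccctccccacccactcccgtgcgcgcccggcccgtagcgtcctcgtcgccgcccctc
Dnmt1 upstream start, chr9:20959839-20960138, minus strand: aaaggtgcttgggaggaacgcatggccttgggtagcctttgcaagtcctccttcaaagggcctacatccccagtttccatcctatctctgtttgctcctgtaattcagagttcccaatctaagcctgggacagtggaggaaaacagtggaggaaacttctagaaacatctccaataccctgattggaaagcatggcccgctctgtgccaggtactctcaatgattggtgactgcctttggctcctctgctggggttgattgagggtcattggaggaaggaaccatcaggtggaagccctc

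E2F1 peaks were listed at all 8 genes in replicate 2 and at 7 of the 8 in replicate 1, with Tet1 the gene missing there. The same rule called 36.9% of all protein-coding genes in replicate 1 and 38.2% in replicate 2. In both E2F1 lists together, 7 of the 8 genes had a peak, against 34.4% of all protein-coding genes. Neither EV list held a peak at any of the 8 genes. Few genes had one there, 0.0365% in EV replicate 1, 0.406% in EV replicate 2 and 0.434% in either, so an empty EV list is also what most genes showed. The difference between E2F1 and EV at these genes could not be tested, because the lists give no value where no peak was listed, and 2 against 2 libraries cannot reach a p below 0.333 in an exact permutation test. No gene-level p is given for the group, whose members were picked with earlier results of these data known.

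The maintenance pair had the highest folds of the group in both libraries. At Dnmt1 the deposited fold enrichment, the pileup of reads over the local background at the summit, was 21.8 in replicate 1, which ranked 707 of 7836, and 38.5 in replicate 2, which ranked 448 of 8027. These ranks put the Dnmt1 peak at the 91.0th and 94.4th percentile of fold in its lists, where the percentile is the share of a list's other peaks with a fold at or below it. At Uhrf1 the fold was 22.6 (rank 639, percentile 91.9) in replicate 1 and 32.7 (rank 694, percentile 91.4) in replicate 2. The order of these genes differed between the libraries, so they cannot be ranked against each other. The peaks were wider than the list medians of 938 bp and 814 bp, but this was common in the group: with the pair included, the strongest peak was wider than the median at 5 of 7 genes in replicate 1 and 5 of 8 in replicate 2. The share of all genes whose strongest peak was wider than the median was not computed. That of Dnmt1 lay at chr9:20951418-20953657 in replicate 1 and chr9:20951630-20953131 in replicate 2, widths of 2240 bp and 1502 bp. That of Uhrf1 lay at chr17:56302573-56305035 and chr17:56303200-56304922, widths of 2463 bp and 1723 bp.

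Uhrf2, a paralogue of Uhrf1 not known to replace it in maintenance, had a fold of 5.89 at percentile 17.4 in replicate 1, against 12.3 at percentile 54.5 in replicate 2. This was the largest change of percentile between replicates among the 7 genes with a peak in both lists. The pileup at its summit was 73 reads in replicate 1 and 52 in replicate 2, beside list medians of 47.0 and 45.0. Depth was not measured, so these pileups are read within each list. The local background that divides the pileup was 11.6 reads in replicate 1, 6.26 times the genome-wide background, and 3.32 reads in replicate 2, 1.79 times. Its peak lay at chr19:30029862-30031693 in replicate 1, with widths of 1832 bp and 1425 bp in replicates 1 and 2, and the summits of the replicates lay 2 bp apart, 215 bp and 217 bp downstream of the listed start. By pileup Uhrf2 stood at the 74.6th and 57.7th percentile.

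The de novo enzymes differed from each other. The fold at Dnmt3a was 15.3 in replicate 1 (rank 1683, percentile 78.5) and 16.0 in replicate 2 (rank 2629, percentile 67.3), above the median fold of both lists, 9.19 and 11.3. Dnmt3b had folds of 6.29 (rank 6043, percentile 22.9) and 10.9 (rank 4175, percentile 48.0), below both medians. The peak of Dnmt3a, at chr12:3806323-3808512 in replicate 1, was broad, 2190 bp and 1771 bp. That of Dnmt3b, at chr2:153649211-153649866 in replicate 1, was narrower than the list median, at 656 bp and 703 bp. The higher of the Dnmt3b percentiles was below the lower of the Dnmt3a percentiles.

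Among the erasers, Tet3 had 2 peaks in each E2F1 library, and it was the only gene of the 8 with more than 1. The outer one, near the 5′ end of the gene's span at chr6:83455296-83456972 in replicate 1, had folds of 15.3 and 21.8, at percentiles of 78.7 and 80.6. The inner one, at chr6:83440587-83442640 in replicate 1, had folds of 8.91 and 12.5, at percentiles of 47.8 and 55.1. Thus the outer peak was the stronger in each library. It was 1677 bp and 1267 bp wide in replicates 1 and 2, and the inner one 2054 bp and 783 bp.

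The fold at Tet2 was 5.92 in replicate 1, compared with 9.86 in replicate 2, at percentiles of 17.8 and 42.1, with 33 and 31 reads at the summit of a peak at chr3:133544168-133544930 in replicate 1. Tet1 was listed in replicate 2 only, at chr10:62886813-62887527, with a fold of 5.92, rank 7056 and 24 reads over a background of 3.22. Its −log10 p of 13.8 was close to the threshold of the list. With a filter at that level and no value for replicate 1, the absence of a Tet1 peak there is not shown to be a difference between the libraries.

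**Figure D1:**
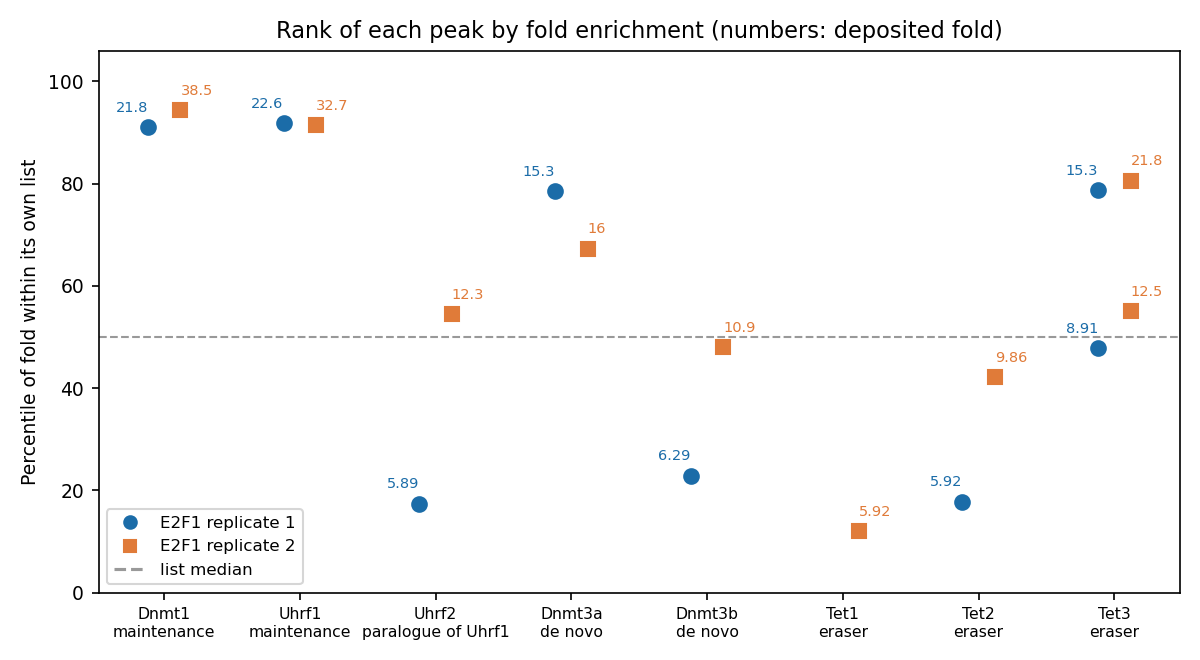
Percentile of deposited fold within its own list (vertical axis, 0 to 100) for every E2F1 peak at the 8 genes, circles for replicate 1 and squares for replicate 2, with the fold printed beside each point and the dashed line at the list median. Dnmt1 and Uhrf1 lie at 91.0 to 94.4 in both libraries, Tet3 has 2 points per library, and Tet1 has a point in replicate 2 only.

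Set side by side, the lowest percentile of the maintenance pair was above the highest of the other 6 genes in each library, by 12.3 points in replicate 1 and 10.8 in replicate 2. The nearest of the others was the outer Tet3 peak in both. Against the de novo enzymes alone the gap was 12.5 and 24.1 points. The size of the gap depended on the measure. By deposited score it was 3.60 and 9.29 points, and by recovered pileup 0.651 and 6.54 points, since the Tet3 outer peak held 131 reads in replicate 1 beside the 135 of Uhrf1 and the 147 of Dnmt1. In replicate 2 the pileups were 105 at Tet3, 142 at Dnmt1 and 196 at Uhrf1. These genes are not replicates of a class, so no test of maintenance against the rest was made.

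**Figure D2:**
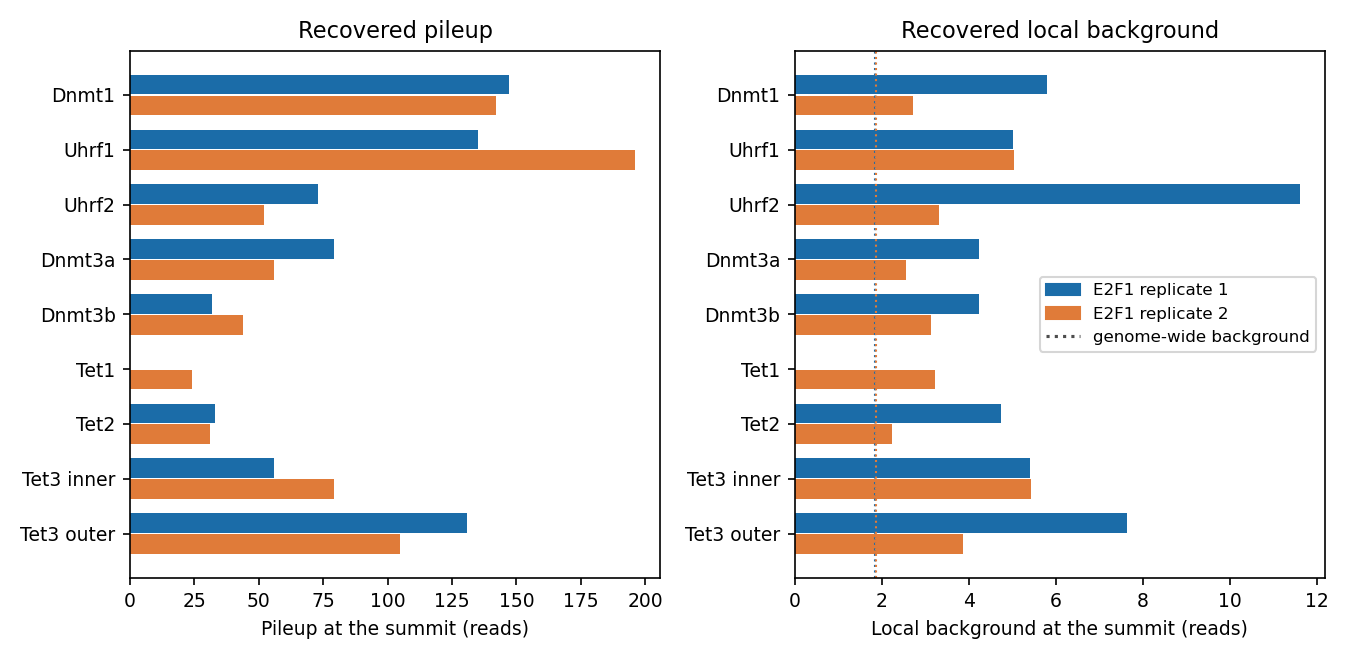
Reads at the summit (left) and local background at the summit (right), both recovered from the deposited fold and p-value, for each peak in E2F1 replicates 1 and 2. Dotted lines mark the genome-wide backgrounds of 1.85 and 1.86 reads, and Uhrf2 in replicate 1 has the highest local background of the group, 11.6 reads. Tet1 has no bar in replicate 1, where it has no listed peak.

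Over all protein-coding genes with a peak, the strongest peak of a gene had a median fold percentile of 54.1 in replicate 1 and 53.2 in replicate 2. The median of the 7 genes with a peak in replicate 1 was 78.5, and that of the 8 in replicate 2 was 60.9. In replicate 1, 4 of 7 strongest peaks had a fold above the list median, and in replicate 2, 5 of 8. The group therefore held strong and weak sites alike: the maintenance pair at percentile 91.0 or above in each list, and Tet2 and Dnmt3b below the median of each.

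Most of the binding sites covered a listed start of transcription. In all there were 9 sites, 8 of them shared by the E2F1 libraries, made of 17 peaks. Of these, 15 covered a RefSeq start in the promoter table, with a summit at most 361 bp from it, and the exceptions were the outer Tet3 peaks of both libraries, 15022 bp and 14995 bp from the listed Tet3 start. At Dnmt1 the summit was 194 bp downstream of the listed start at chromosome 9, position 20952623, in replicate 1 and 1 bp from it in replicate 2. This start is inside the gene, and the summits were 7459 bp and 7266 bp from the outer end of the span, where another start is listed and neither library had a peak. Dnmt1 is known to be transcribed in oocytes from a start upstream of the one used in somatic cells, and the peaks were on the downstream side. At Dnmt3a the summits were 53 bp and 67 bp from a start that lies inside the span, 5654 bp and 5668 bp from its outer end. Dnmt3a has a further listed start at position 3891744 on chromosome 12, in the gene body, and no list had a peak over that window. For these reasons a search confined to gene boundaries would have missed Dnmt1 and Dnmt3a: the strongest peak had its summit within 1000 bp of an end of the span at 5 of 7 genes in replicate 1 and 6 of 8 in replicate 2. Of all listed peaks, 6350 of 7836 in replicate 1 and 6515 of 8027 in replicate 2 lay within 1000 bp of a boundary of any protein-coding gene. These counts take every peak and any gene, so they are not the same measure as the counts for the group. A position near a gene boundary was common in the lists, and it was not shown to be a trait of this group. The share of all peaks that cover a listed start was not computed.

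At Uhrf1 a single broad peak covered both listed starts in both libraries, and its summit lay 325 bp and 243 bp upstream of the downstream start. At Dnmt3b the summits were 80 bp and 21 bp from the start, and at Tet2 177 bp and 73 bp. The inner Tet3 peak had its summit 2 bp and 6 bp from the gene's listed start. It was also 71 bp or more from the start of B230319C09Rik, a non-coding RNA gene on the opposite strand, so the inner peak cannot be assigned to Tet3 alone. The outer Tet3 peak had its summit 508 bp and 535 bp inside the 5′ end of the span, where the promoter table lists no start. Besides B230319C09Rik, the other annotated gene within 1000 bp of a peak of the group was Gm51805, a non-coding RNA gene whose span overlaps that of Tet1 and whose boundaries were at least 21293 bp from the summit. No protein-coding neighbour lay within 1000 bp of any of these peaks.

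**Figure D3:**
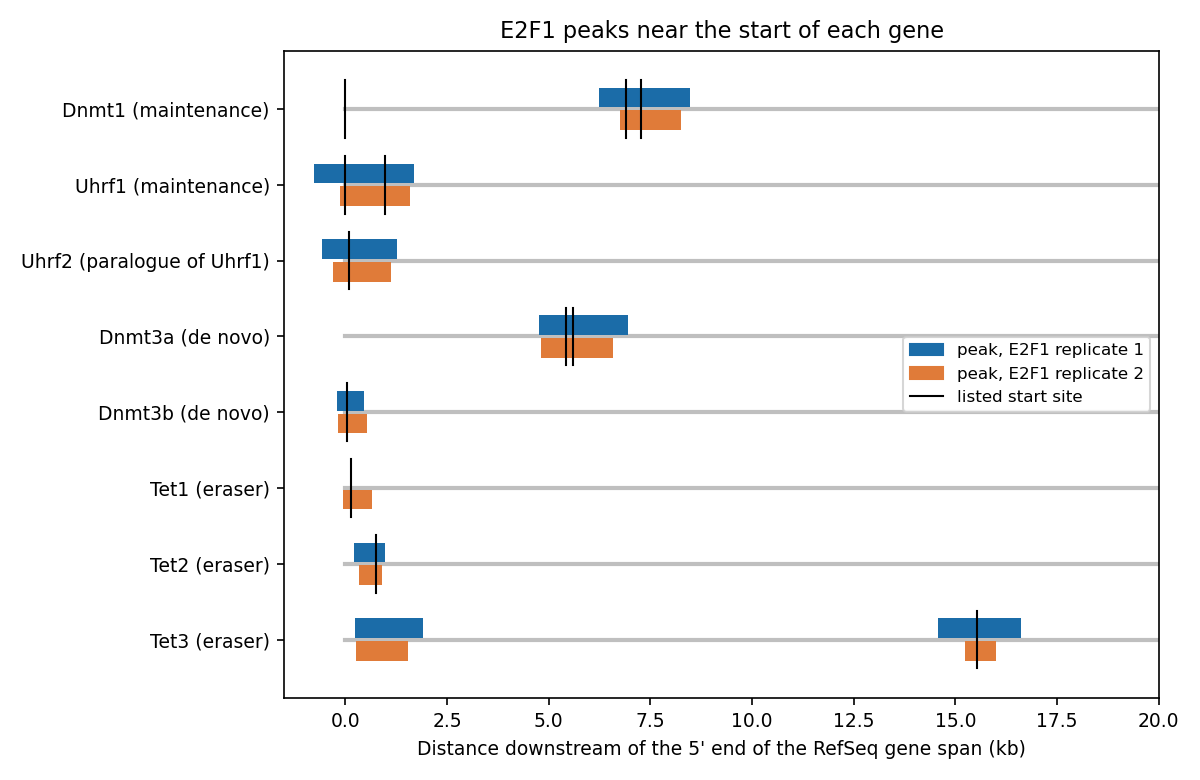
Peaks of E2F1 replicate 1 (upper bar) and replicate 2 (lower bar) by distance from the 5′ end of the RefSeq gene span in kb, drawn to 20 kb downstream, with listed starts as vertical lines. The peaks of Dnmt1 and Dnmt3a lie inside the span on listed starts, Tet3 has 2 sites, and the third listed Dnmt3a start is beyond the plotted range.

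The E2F1 libraries placed these sites alike. At the 8 shared sites the summits were 2 to 193 bp apart, with a median of 54.5 bp, beside a median of 56.0 bp over the 7138 overlapping peak pairs of the lists. The replicate 1 peak was the wider one at 7 of the 8 sites, and at 64.4% of all pairs. By a stricter window of 1000 bp around a listed start, the count of genes with a peak in both lists was again 7 of 8, against 33.1% of the 17492 protein-coding genes with a listed start.

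An E2F word of 8 bases was present in 2 of the 13 promoter windows, the downstream windows of Dnmt1 and Uhrf1 printed above, and in 2.85% of all 21263 windows of protein-coding genes. The Dnmt1 window held TTTGGCGC with its centre 37 bases after the start, 157 bp and 36 bp from the summits of replicates 1 and 2, and TTTCGCGC on the other strand, 409 bp and 216 bp from them. The Uhrf1 window held TTTCGCGC at 144 bp and 62 bp from the summits. Both genes are the ones with the highest fold, but other genes had peaks without such a word: the windows of Dnmt3a, Dnmt3b, Tet1, Tet2 and Tet3 held none of the words of 8 or 7 bases. With words of 7 bases 4 windows matched, adding the upstream Uhrf1 window (TTCCCGC) and Uhrf2 (TTGGCGC), against 12.1% of all windows. All 4 were among the 10 windows of the group overlapped by a peak in both E2F1 lists. Across the genome, 5.96% of windows overlapped by a peak in both E2F1 lists held a word of 8 bases, and 1.29% of windows overlapped in neither. For words of 7 bases these shares were 23.5% and 6.48%, so the share among bound windows was well above that of all windows. A match is a description of the letters, and binding through it was not tested.

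CpG dinucleotides, the sites these enzymes act on, were frequent in most of the bound windows. The 10 windows overlapped in both E2F1 lists held a median of 31.5 CpG dinucleotides in 300 bases, from 12 to 57, while over all protein-coding windows overlapped in both lists the median was 27.0 and over those overlapped in neither it was 6.00. The highest count was in the Tet2 window, and the 2 windows without a peak held 2 CpG (upstream Dnmt1) and 18 CpG (gene-body start of Dnmt3a). The Tet1 window, with a peak in replicate 2 only, held 17. Within the group CpG number did not follow fold, since the Tet2 window with 57 CpG had a lower fold than the Dnmt1 and Uhrf1 windows with 33 each.

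Other genes of DNA methylation, listed by role, placed the group in its pathway. Of 40 such genes, 31 had a peak in both E2F1 lists and 0 in either EV list, beside the 34.4% and 0.434% of all protein-coding genes given above. Genes listed as helpers of maintenance had a peak in both lists in 7 of 8 cases. Their median fold percentiles were 96.8 in replicate 1 and 93.4 in replicate 2. The highest fold of this role was that of Pcna, the sliding clamp that holds Dnmt1 and other enzymes at the replication fork, at 54.0 and 57.5 (ranks 21 and 120). Hells, a chromatin remodeller needed for methylation of repeats, had folds of 35.6 and 40.0, and its partner Cdca7 51.3 and 35.7. Several of these helpers also serve DNA replication itself, as Pcna and the ligase Lig1 do. Dppa3, a germline and early embryo protein, had no peak, and its place in the set is no evidence that it helps maintenance.

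A further set of 4 genes had been listed as helpers of de novo methylation, but only Dnmt3l, the catalytically inactive partner of the de novo enzymes in germ cells, has that role, and it had no peak. The other 3 had a peak in both lists. Trim28 and Zfp57 protect methylation at imprinted sites, and Trdmt1 methylates transfer RNA. Trim28 had folds of 20.1 and 36.5, Trdmt1 8.78 and 6.92, and Zfp57 8.11 and 5.86, so the set's median percentiles of 46.6 and 21.8 are those of Trdmt1. Genes listed as readers of methyl-CpG had a peak in both lists in 6 of 8 cases, with median percentiles of 55.0 and 60.0. The highest folds of this set were at Mbd3, 25.5 and 21.1. Mbd3 is a subunit of the NuRD complex, and its place in the set is no evidence that it binds methyl-CpG. Zbtb4 had a peak in neither list.

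Partners in base excision repair, which replaces oxidised methylcytosine, had peaks in both lists in 6 of 8 cases, with median percentiles of 65.8 and 67.9. Xrcc1, a scaffold of that repair, led with folds of 21.8 and 36.1, while Tdg, the glycosylase that removes the products of TET enzymes, had 12.6 and 24.2. The glycosylase Smug1 had no peak in either list. In methyl donor supply 4 of 6 genes had a peak in both lists, with median percentiles of 81.1 and 67.6. Mat2a, which makes S-adenosylmethionine, led with 26.5 and 45.4, and Mtr, methionine synthase, had none. Of the genes for 2-oxoglutarate supply and TET partners 5 of 6 had a peak in both lists, with median percentiles of 59.3 and 32.0. Cxxc5 had the highest fold of this role in replicate 1, 15.4, while in replicate 2 its 14.6 was below the 16.1 of Idh1, and Ogt had no peak.

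By percentile over the 2 E2F1 libraries, the pathway gene nearest to both Dnmt1 and Uhrf1 was Xrcc1, at 91.0 and 93.5, with summed differences of 0.936 and 3.00 points. Ung was nearest to Dnmt3a (2.02 points) and Usp7, the deubiquitinase that binds Dnmt1 and Uhrf1, was nearest to Tet3 (6.47 points). The weaker genes had no close match: the nearest were Zbtb38 for Uhrf2 (19.8 points), and Idh2 for Tet2 (18.6 points) and Dnmt3b (29.5 points).

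**Figure D4:**
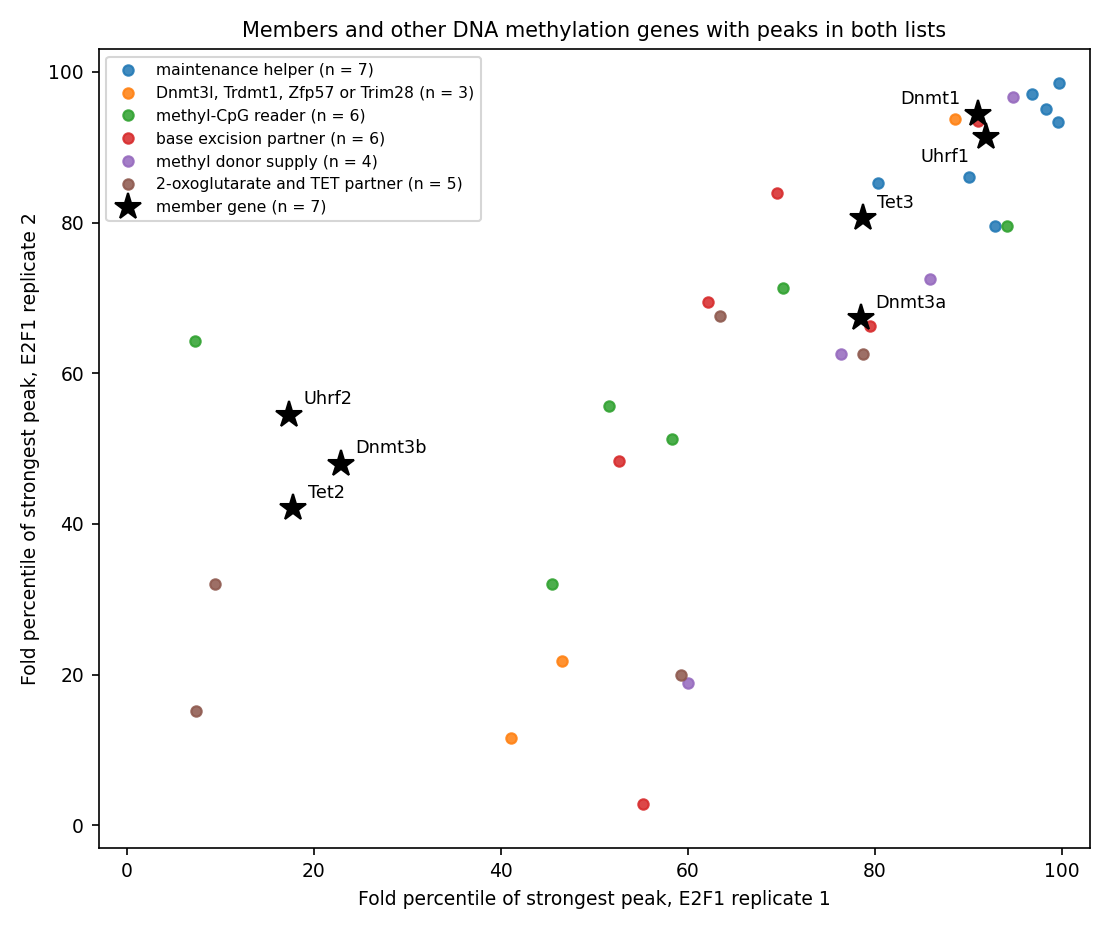
Fold percentile of a gene's strongest peak in E2F1 replicate 1 (horizontal) and replicate 2 (vertical) for the 7 genes of the group (stars) and 31 other DNA methylation genes (points, coloured by role) with a peak in both lists. Dnmt1 and Uhrf1 sit at the upper right with most maintenance helpers and with Xrcc1, Mat2a and Trim28 of other roles, and Uhrf2, Dnmt3b and Tet2 lie at 17.4 to 22.9 in replicate 1.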

How the data were processed

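Peak lists of 4 ChIP-seq libraries were used, 2 of E2F1 and 2 of EV, grouped by sample title. The submitters' processing notes name FastQC, Trimmomatic, Bowtie2, MACS2, ChIPseeker and build mm10, which is GRCm38; the antibody, the control and the cutoff are not given in the sources used here. The authors deposited 1 list per library with, for each peak, a score, a fold enrichment ratio, a −log10 p and a −log10 q. Scores and folds are the authors' own and are read within a list, because they also depend on each library's depth and background. The lists begin at a −log10 p just above 10.

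Gene spans and promoter windows came from RefSeq tables of GRCm38.p6, and all 8 genes and all 40 pathway genes were matched by symbol. Pileup and local background were solved from fold, taken as pileup plus 1 over background plus 1, and p, taken as a Poisson upper tail. The solution was within 5% of a whole read for 95.71% to 99.99% of peaks per list. Percentiles, overlaps (at least 1 bp) and word searches were computed in Python 3.11.15 with pandas 2.3.3 and scipy 1.17.1. Pileup recovery, overlaps and the word search were checked on simulated data. The simulated backgrounds were all below the 11.6 reads of Uhrf2 in E2F1 replicate 1, and percentiles were not checked this way.

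The members, the lists and the questions were chosen with earlier results of these data known, so values are descriptions with no test. All 8 genes are named; of the pathway list, the gene with the highest fold in E2F1 replicate 1 in each role, genes without a peak, and the nearest gene to each member by percentile. Hells, Cdca7, Lig1, Tdg, Trdmt1, Zfp57 and Idh1 were named after their values were seen. Alternatives were the window, the summit rule, a stricter score, the measure of rank, the words and each library left out; ranking by pileup less background and the gap to the de novo enzymes alone were added after seeing the data.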

Additional observations from a re-analysis of the deposited data

How the results depend on the processing

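Of 72 alternatives over 15 results, 51 stayed within the limits set for a change, 21 moved and 0 reversed. The genes with a peak in both E2F1 lists numbered 7 in every window, and 5 when only the higher-scoring part of each list was kept (scores not below the list median), which removed Dnmt3b and Tet2; leaving out a library gave 7 to 8. The count in either EV list was 0 in each alternative run. At the stricter score the share of all protein-coding genes was 17.1%, and the count of pathway genes was 18, with fewer peaks by construction; without 1 library these were 36.9% to 38.2% and 32 to 33. The gap between the maintenance pair and the others, 10.8 points at its smaller, was 3.60 by deposited score, 0.651 by pileup, 1.07 by pileup less background, 12.5 against the de novo enzymes alone, and 10.8 to 12.3 without 1 library. It could not be computed among peaks within 1000 bp of a gene boundary, where Dnmt1 has none. With words of 7 bases 4 of the 13 windows matched, and with TTTCCCGC and TTTGGCGC only 1 did; the shares of all windows were 12.1% and 2.02%. Single-gene percentiles moved beyond the limit set for a change in 11 of 30 alternatives, and the cause was not tested. Tet1 is among those that moved, with a percentile in replicate 2 only and so no spread between replicates to compare with. No paired analysis was possible because the results come from no test. The p-value filter of the lists limits every absence to strong sites. EV replicate 2 had the lowest recovered background of the 4 lists, 1.18 reads, but read totals were not used and its depth was not measured.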

Other observations

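The distance from each gene to the nearest EV peak varied widely. In EV replicate 2 it was 61.3 kb for Tet2, 238 kb for Uhrf1 and 568 kb for Uhrf2, and at least 2449 kb for the other 5 genes. In EV replicate 1 it was also 238 kb for Uhrf1, while no peak was listed on the chromosomes of Uhrf2 and Tet1. The EV peak nearest to Uhrf1 had a fold of 9.22 in the first EV library and of 169 in EV replicate 2, the latter the highest fold of its list.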
